A study of Mus musculus with 2 samples.

Results

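A 3.5 Mb stretch of mouse chromosome 10 with closely spaced genes was examined by array comparative genomic hybridisation, in which test and control DNA are labelled with different dyes and hybridised together. Its members are the measurement probes of chromosome 10 that start between positions 78500000 and 82000000, in the coordinates of the array files. The sources used here name no genome build for these. Of 191 such probes, 4 named for odorant receptors (Olfr) were left out by the rule, which also leaves out names of ribosomal protein genes (Rps and Rpl) and met none. This gave 187 probes of 42404 on the array. The stretch was chosen because embryo ratios were high there, so its embryo values are a description and carry no test.

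Each of 2 arrays compared DNA of females labelled Dnmt3L+/+ in both channels, and the test channel held offspring of a heterozygous Dnmt3L+/- sire. On the adult array, tail DNA of adult C57BL/6 offspring of that kind was in Cy3 and tail DNA of an unrelated C57BL/6 colony in Cy5. On the embryo array, whole-embryo DNA at E10.5 of such offspring was in Cy5 and DNA of a control cross in Cy3, so the dyes were opposite between stages and dye and stage cannot be told apart. The labels of the embryos name the cross (FVB/NJ x C57BL/6)F1 in one place and C57BL/6 in another, which leaves the strain unsettled, and whether animals were pooled is not stated. With a single array for each stage, no difference below could be set against a spread between animals and no p-value is given. Intervals on shares of probes are exact binomial (95%), cover counting error only, and treat probes as independent, although some belong to 1 gene.

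All values are log2 ratios of offspring over control, from processed signals, centred on the median of each array. A DNA segment with the same copy number in both samples gives a ratio near that median, and a gained or lost copy shifts all probes of the segment together. Dnmt3L is a cofactor without catalytic activity of its own that helps the de novo methyltransferases to set DNA methylation in germ cells, and its loss in male germ cells lets retrotransposons become active. Gene-dense parts of mammalian chromosomes are as a rule rich in G and C, hold many CpG island promoters and carry many genes expressed in most tissues. Probes of this array type are shortened below 60 bases to bring their melting temperatures together, so a shorter probe generally holds more G and C. The bases of the probes and their place in exons or introns were not analysed here.

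Among the 187 probes, 11 had no gene name and the rest carried 126 names. Of these, 73 were current symbols in RefSeq (GRCm38.p6), 33 matched a single synonym and 20 were not matched. RefSeq placed 104 of the matched names on chromosome 10, and it placed Tnrc9 (now Tox3) and Timm9 elsewhere, so these 2 names can be wrong. The median spacing of probes was 10.7 kb, against 21.6 kb on the autosomes outside the band, and the largest gap was 249 kb. Probes shorter than 60 bases made up 61.5% of the band and 20.8% of the autosomes outside it.

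For 88 genes of the band the RefSeq table held a promoter window (250 bases before to 50 after the start of the gene). Its median GC content was 62.3%, against 52.7% over 27025 genes, and its median number of CpG pairs was 23 against 7. A GC content over 60% was found in 68.2% of the band windows and in 28.5% of all windows. The 250 bases before the start are shown for 3 genes with high embryo ratios (Gna15, Mknk2 and Gna11) and for Cdc34, whose embryo ratio was −0.013 (0.21 after normexp, another background correction), to set promoters of different CpG content side by side. Each is given 5′ to 3′ on the strand of its gene, with CpG pairs in capitals. The windows lie at chr10:81524226-81524475 (Gna15, minus strand), chr10:80676294-80676543 (Mknk2, minus strand), chr10:81545163-81545412 (Gna11, minus strand) and chr10:79681945-79682194 (Cdc34, plus strand) of GRCm38.p6, which is not the coordinate system of the array files.
Gna15: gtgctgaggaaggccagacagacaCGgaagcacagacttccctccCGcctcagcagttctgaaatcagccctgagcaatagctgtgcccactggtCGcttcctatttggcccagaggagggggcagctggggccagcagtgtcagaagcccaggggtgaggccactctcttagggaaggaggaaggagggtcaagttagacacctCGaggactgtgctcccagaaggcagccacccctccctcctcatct
Mknk2: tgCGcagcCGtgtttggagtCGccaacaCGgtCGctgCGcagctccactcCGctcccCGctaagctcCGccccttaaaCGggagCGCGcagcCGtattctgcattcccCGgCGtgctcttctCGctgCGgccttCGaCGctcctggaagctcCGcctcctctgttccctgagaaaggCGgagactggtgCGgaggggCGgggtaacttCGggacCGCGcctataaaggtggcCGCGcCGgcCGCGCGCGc
Gna11: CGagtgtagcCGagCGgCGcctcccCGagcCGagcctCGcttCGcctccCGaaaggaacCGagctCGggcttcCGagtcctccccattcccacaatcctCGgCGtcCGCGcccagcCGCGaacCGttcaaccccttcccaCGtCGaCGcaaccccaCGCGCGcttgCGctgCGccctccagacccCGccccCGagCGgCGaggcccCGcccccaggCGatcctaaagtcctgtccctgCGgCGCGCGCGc
Cdc34: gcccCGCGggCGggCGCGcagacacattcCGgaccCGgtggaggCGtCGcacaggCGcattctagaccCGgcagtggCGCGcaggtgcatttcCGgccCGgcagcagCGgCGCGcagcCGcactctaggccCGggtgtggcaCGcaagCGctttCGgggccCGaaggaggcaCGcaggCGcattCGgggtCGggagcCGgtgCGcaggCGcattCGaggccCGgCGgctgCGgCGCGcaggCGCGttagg
Gna15, with the highest median embryo ratio of the band genes with at least 2 probes, had 4 CpG pairs and 60.4% GC in this window. Mknk2 had 33 pairs and 68.4%, Gna11 had 38 pairs and 73.2%, and Cdc34 had 39 pairs and 75.2%. Across the 88 genes, promoter GC content and the median embryo ratio correlated at 0.012 (Pearson; Spearman 0.073). With adult ratios the values were 0.032 and −0.0020. These are relations across genes of 1 array, and the probes were not placed relative to the promoters.

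On the embryo array the band lay above the array median, with a wide spread. Its median log2 ratio was 0.12 (SD over probes 0.51, 187 probes, from −0.999 to 2.46), a signal ratio of 1.09. The rest of chromosome 10 had a median of 0.013 (SD 0.33, 1848 probes) and the other autosomes 0.010 (SD 0.33, 38455 probes). Of the band probes, 123 lay above 0 (65.8%, interval 58.5 to 72.5%), against 51.8% on the autosomes outside it. A ratio of at least 0.5, a signal ratio of 1.41, was reached by 40 probes (21.4%, interval 15.7 to 28.0%). Over all 42370 probes measured on this array the share was 4.4%, and over autosomal probes 4.53%. As the stretch was picked for such probes, nothing is read from this difference. In the other direction 10 probes lay at or below −0.5 (5.35%), against 8.54% of all probes and 5.57% of autosomal probes. The label of a band with embryo gains thus describes high ratios of a part of its probes only, and 64 of 187 lay below 0. Whether any copy was gained was not tested.

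On the adult array the band lay at the array median. Its median was −0.016 (SD 0.31, 187 probes, from −1.64 to 0.79), against 0.017 for the rest of chromosome 10 and 0.010 for the other autosomes. At or above 0.5 lay 6 probes (3.21%, interval 1.19 to 6.85%), against 3.59% of all 42396 probes and 3.69% of autosomal probes. At or below −0.5 lay 10 probes (5.35%, interval 2.59 to 9.61%), against 8.36% of all and 5.52% of autosomal probes. Both adult shares were near those of autosomal probes. The share of all probes at or below −0.5 also counts probes that are not placed on autosomes. After normexp correction no band probe passed 0.5 in either direction, and of all adult probes only 0.012% then lay at or above 0.5. That correction adds an offset of 50, which draws signal ratios toward 1. Adult background-subtracted signals were of like size, with medians of 40.8 (offspring) and 56.3 (control). All 10 probes at or below −0.5 before that correction were shorter than 60 bases.

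**Figure D1:**
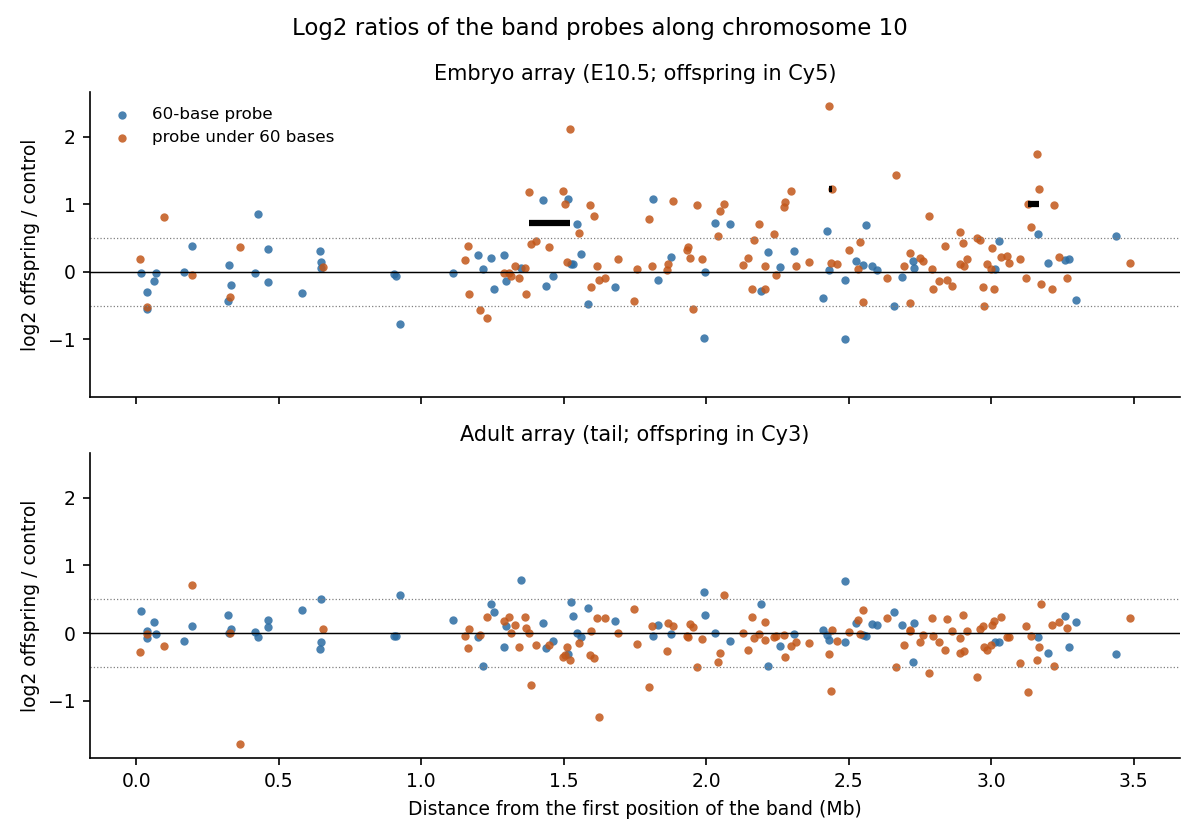
Log2 ratio of offspring over control (vertical axis) of each of the 187 band probes against distance from the first position of the band in Mb, on the embryo array (top) and the adult array (bottom). Colours separate 60-base from shorter probes, dotted lines mark ±0.5, and black bars show the 3 segments called on the embryo array at their medians. High embryo probes are spread between low ones, and the adult probes lie about 0 with a few low values.

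The high embryo probes were not spread evenly, and few lay in the first part of the band. Between 78.5 and 79 Mb the median embryo ratio was −0.014 (20 probes, 2 at or above 0.5), and between 79 and 79.5 Mb it was 0.011 (8 probes, none at or above 0.5). Between 79.5 and 80 Mb it was 0.051 (28 probes, 3). The next 2 intervals held most: 0.17 between 80 and 80.5 Mb (36 probes, 11) and 0.25 between 80.5 and 81 Mb (32 probes, 13). It was 0.092 between 81 and 81.5 Mb (38 probes, 4) and 0.19 between 81.5 and 82 Mb (25 probes, 7). Adult medians ran from −0.086 (80.5 to 81 Mb) to 0.0077 (78.5 to 79 Mb), and that lowest adult interval was the highest on the embryo array. The first interval had 30% and the second 12.5% of probes under 60 bases, and the other intervals between 60.7 and 76.3%. The second interval holds too few probes to place in an order.

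The edges of the band were set by position and fall between probes with no step. The 2 probes just inside its start, both of Nnp1 (now Rrp1), had embryo ratios of 0.19 and −0.012. The 2 just outside, of Agpat3 and LOC432475, had −0.52 and −0.035. At the end, BC090848 and A130081B01 inside had 0.53 and 0.13, and LOC216177 and XM_622779 outside had −0.18 and −0.042. The 25 probes in the 500 kb before the band had an embryo median of −0.026, and the 6 in the 500 kb after it 0.040.

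Least-squares partition of chromosome 10, which groups neighbouring probes of like ratio, called 3 segments in the band on the embryo array and 0 on the adult array. The 3 held 20 of the 187 probes. A called segment had at least 3 probes and a median at least 0.3 from 0. The calls depended on the settings: 1 embryo segment was called after normexp background correction, and 0 with a penalty factor of 5 in place of 3. Without these 20 probes the embryo median of the band was 0.089 and 27 probes still lay at or above 0.5.

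The longest segment ran from 79878094 to 80020335 (142 kb, 12 probes) and mixed high probes with probes near 0. Its values ran from −0.21 to 2.11 (median 0.73, SD 0.66), 10 of 12 lay above 0 and 6 at or above 0.5. Fgf22, a fibroblast growth factor that helps to organise synapses, had 1.19 with its 1 probe. Rnf126, a ubiquitin ligase, had 0.41, and Fstl3, a secreted protein that binds activins, had 0.45. The 2 probes of Palm, a lipid-anchored membrane protein, disagreed, at 1.07 and −0.21. The neutrophil proteases Prtn3 and NE (now Elane) stood next to each other at 1.01 and 0.15, and Adn (now Cfd, complement factor D) had 1.07. Thrap5 (now Med16), a Mediator subunit, ended the segment at 2.11, while its second probe 3.88 kb away, measured from outer end to outer end, had 0.11 and lay outside. The others were BC005764 at 1.20, 9130017N09Rik (now Misp), an actin-bundling protein, at 0.37, and ENSMUST00000080928 at −0.068. The adult median over the same 12 probes was −0.22. After normexp correction the Adn probe had −0.043.

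The other segments were short. From 80930325 to 80940577 lay AK088566 at 2.46, Amh, the anti-Müllerian hormone gene, at 0.13, and 2300003C06Rik (now Jsrp1), a protein of muscle membranes, at 1.23 (median 1.23, SD 1.16). Their adult median was −0.31. The middle probe, that of Amh, thus lay near the array median, and on the adult array it was not well above background in both channels. From 81628873 to 81667018 lay 5 probes, all at or above 0.5 (median 1.001, SD 0.48, adult median −0.21). They belonged to Ncln (1.001), which encodes the membrane protein nicalin, and to the neighbouring G protein alpha subunit genes Gna15 (0.67 and 1.75) and Gna11 (0.56 and 1.23). On either side of them, the other Ncln probe had −0.085 and the third Gna11 probe −0.17.

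Single probes in the band were measured with a median error of 0.24 log2 on each array, by the error model of the scanner software. AK088566, a transcript not matched to a gene, had the highest embryo ratio, 2.46 (error 0.35), from processed signals of 2734 in offspring and 496 in control, and an adult ratio of −0.31 (error 0.20). Thrap5 followed with 2.11 (error 0.40), from 969 and 224, and an adult ratio of −0.41 (error 0.28). The higher Gna15 probe had 1.75 (error 0.32), from 1229 and 364, and an adult ratio of −0.40 (error 0.25). Slc39a3, a zinc transporter gene named here after its value was seen, had 1.43 (error 0.27), from 2319 and 856, and an adult ratio of −0.50 (error 0.22). These 4 probes had the highest embryo ratios in a band chosen for high embryo ratios, so their distance from the error carries no test. On the adult array all 4 lay below 0 by more than their error there. The SD between spots of 1 probe, known from 308 probes elsewhere on the array that were spotted 3 times, had medians of 0.065 (embryo) and 0.19 (adult), while each band probe had 1 spot.

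Probes of 1 gene often differed in their embryo ratios. Among the 45 genes with at least 2 usable embryo probes (well above background in both channels), 30 had a median above 0 and 15 below. Only 2 had every probe at or above 0.5: Gna15 and Tcfe2a. A further 14 had at least 1 probe at or above 0.5 and another below it. In 28 of the 45 the probes lay on both sides of 0, and the median range within a gene was 0.47. These counts were not made for genes outside the band, so nothing particular to the band is read from them. The names 4931413A09Rik and Itgb1bp3 each occur at separate places in the band, so their 2 probes may not belong to 1 gene.

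**Figure D2:**
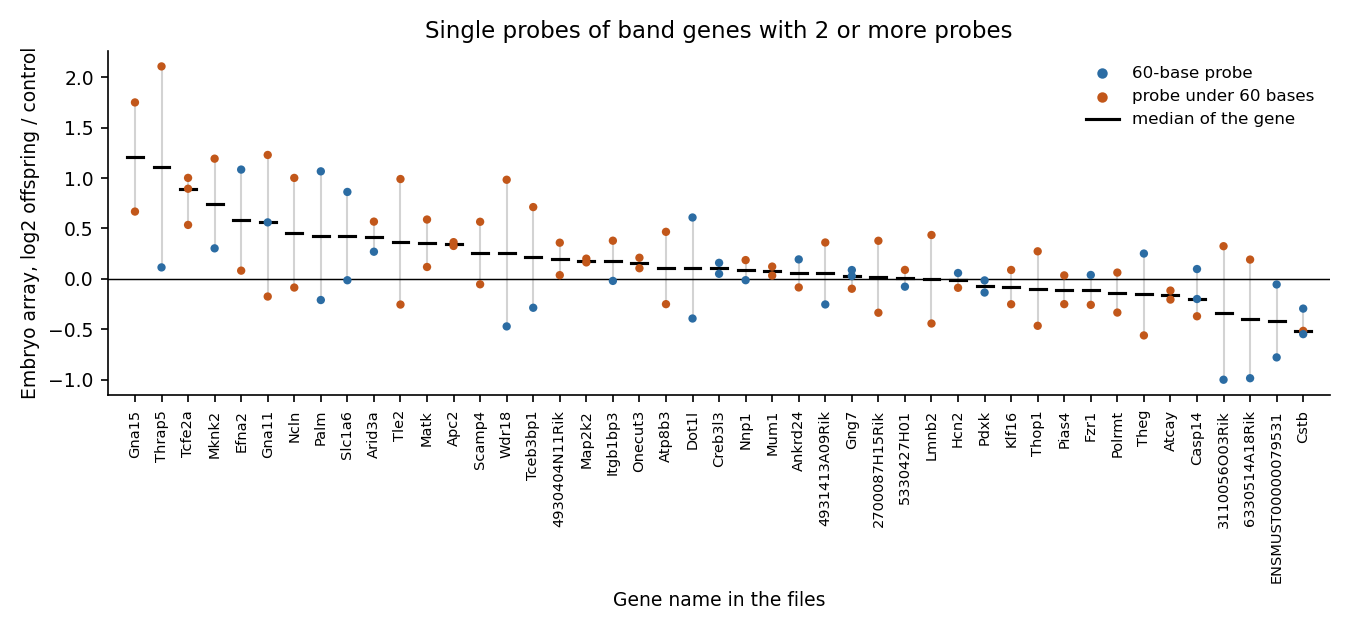
Embryo log2 ratio of offspring over control (vertical axis) of each probe of the 45 genes with at least 2 probes (horizontal axis, sorted by median), with the median as a bar and a grey line over the range. Gna15 and Tcfe2a have all probes at or above 0.5, while Thrap5 has 1 probe at 2.11 and another at 0.11.

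The 10 highest of these genes by embryo median began with Gna15 (1.21, SD 0.77, 2 probes), Thrap5 (1.11, SD 1.41) and Tcfe2a (now Tcf3), which encodes the E2A transcription factors of lymphocyte development (0.89, SD 0.24, 3 probes). Mknk2, a kinase that phosphorylates a translation initiation factor, had 0.75 (SD 0.63) and Efna2, the ephrin-A2 ligand of Eph receptors, 0.58 (SD 0.71). Gna11 had 0.56 (SD 0.70, 3 probes). Then came Ncln (0.46), Palm (0.43), Slc1a6, a glutamate transporter of Purkinje cells (0.42), and Arid3a, a DNA-binding protein of B cells (0.42). Their adult medians ran from −0.38 for Ncln to 0.028 for Efna2. For Tcfe2a the 3 embryo ratios were 0.54, 0.89 and 1.001 and the adult ratios −0.44, −0.29 and 0.56. After normexp correction the embryo median of Tcfe2a was 0.24 and its adult median 0.11, and the embryo medians of Slc1a6 and Thrap5 were 0.096 and 0.49.

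The 5 lowest genes on the embryo array were Cstb, 6330514A18Rik, ENSMUST00000079531, 3110056O03Rik and Casp14. Cstb, an inhibitor of cathepsins, had −0.51 (SD 0.14, 3 probes within 0.984 kb) and an adult median of −0.014. Its 3 embryo values were −0.51, −0.55 and −0.29, but probes this close read nearly the same stretch. ENSMUST00000079531 had −0.42 and an adult median of 0.26. The Polo-like kinase gene 6330514A18Rik (now Plk5) had −0.40, from probes at −0.98 and 0.19, with an adult median of 0.26. The intramembrane protease gene 3110056O03Rik (now Sppl2b) had −0.34, from probes at −0.999 and 0.32, with an adult median of 0.39. Casp14, a caspase of the epidermis, had −0.20 and an adult median of 0.0028. After normexp correction these embryo medians were closer to 0, at −0.38 for Cstb, −0.13 for ENSMUST00000079531, −0.084 for 6330514A18Rik, 0.025 for 3110056O03Rik and −0.049 for Casp14.

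The 5 highest adult gene medians were those of 3110056O03Rik (0.39), the pacemaker channel gene Hcn2 (0.29, from 0.79 and −0.21), 6330514A18Rik (0.26), ENSMUST00000079531 (0.26) and Tceb3bp1 (now Rexo1; 0.21). The 5 lowest were Ncln (−0.38), Tcfe2a (−0.29), Gna15 (−0.22), Tle2, a Groucho-type corepressor (−0.18), and Matk, a tyrosine kinase of blood cells (−0.18). In these rankings, 3 of the 5 lowest adult genes were among the 10 highest on the embryo array, and 3 of the 5 highest adult genes among the 5 lowest. The adult order changed with normexp, whose offset is about as large as the dim adult signals and draws values toward 0 by construction. After normexp the 5 highest had adult medians of 0.038 (3110056O03Rik), 0.035 (Hcn2), 0.10 (6330514A18Rik), 0.049 (ENSMUST00000079531) and 0.0025 (Tceb3bp1). The 5 lowest then had −0.21 (Ncln), 0.11 (Tcfe2a), −0.18 (Gna15), −0.24 (Tle2) and −0.073 (Matk).

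The band genes were also grouped by role, and the groups are described by their probes at or beyond 0.5. Over all probes of the embryo array 4.4% lay at or above 0.5 and 8.54% at or below −0.5 (median 0). Over the whole band these shares were 21.4% and 5.35% (median 0.12), and 65.8% of its probes lay above 0. Each group is a part of the band, and none was tested against it. Of 11 growth factors, hormones and surface receptors 8 were measured (9 probes). Their embryo median was 0.13, with 3 probes higher and 0 lower. The high ones were Fgf22, Efna2 (1.08 and 0.082) and Gpr54 (now Kiss1r), the kisspeptin receptor, at 0.71. Bsg, a membrane glycoprotein, had 0.087 and Madcam1, an adhesion molecule for lymphocytes, −0.016. All 7 G protein genes and partners were measured (13 probes, median 0.087, 5 higher, 2 lower). Gng7, a G protein gamma subunit, had embryo values between −0.097 and 0.088 over its 3 probes. The lower ones were Diras1, a small GTPase, at −0.50 and Rgs19ip3 (now Gipc3) at −0.50.

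Of 10 kinases 8 were measured (13 probes, median 0.19, 3 higher, 1 lower). Mknk2 had 1.19 and 0.30, Map2k2, a kinase of the ERK pathway, 0.20 and 0.16, and Pdxk, which activates vitamin B6, −0.13 and −0.015. The 4 measured serine proteases (Gzmm, Prtn3, NE and Adn) had a median of 0.58 (4 probes, 2 higher, 0 lower), with Gzmm, a granzyme of killer cells, at −0.067. After normexp correction the 2 higher probes had −0.043 (Adn) and 1.19 (Prtn3). Of 20 genes for chromatin and transcription proteins 18 were measured (31 probes, median 0.16, 10 higher, 0 lower). By gene, 15 lay above 0 and 3 below. Besides Tcfe2a, Thrap5 and Arid3a, the mitochondrial RNA polymerase gene Polrmt had 0.063 and −0.33.

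The 4 measured genes for neuronal proteins had 7 probes, of which none was past 0.5 in either direction (median −0.088). Hcn2 had −0.088 and 0.059, Apc2 0.33 and 0.36, Atcay, a neuronal protein of the cerebellum, −0.12 and −0.20, and Grin3b, an NMDA receptor subunit, −0.23. The 6 measured genes of metabolism and translation had a median of 0.22 (7 probes, 2 higher), with Gamt, an enzyme of creatine synthesis, at 1.04 and Oaz1, the inhibitor of ornithine decarboxylase, at 0.12. Ndufs7, of respiratory complex I, had 0.22 and Thop1, a peptidase, 0.27 and −0.46. The 5 ubiquitin and cell cycle genes had 0.039 (7 probes, 1 higher), with Cdc34 at −0.013, Lmnb2, a lamin gene, at 0.44 and −0.44, and Fzr1, an activator of the anaphase-promoting complex, at −0.26 and 0.039. Both measured genes of RNA-binding proteins, Lsm7 and 4930565A21Rik (now Celf5), lay within 0.5 of 0, at −0.12 and 0.18. No collagen gene of the list had a probe in the band. Adult group medians ran from −0.29 (RNA-binding proteins, 2 probes) to 0.025 (neuronal proteins).

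**Figure D3:**
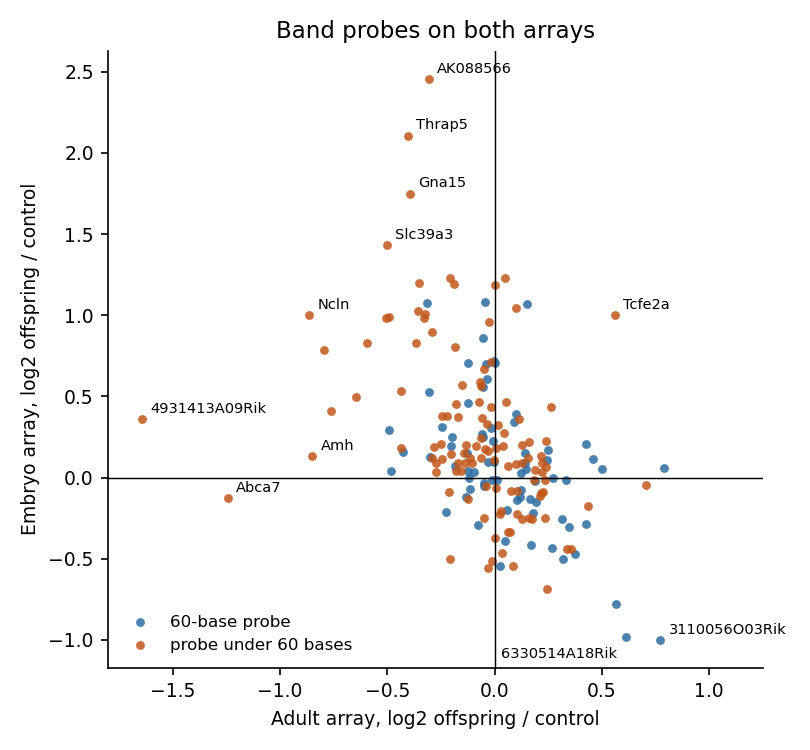
Adult log2 ratio (horizontal axis) against embryo log2 ratio (vertical axis) of offspring over control for each of the 187 band probes, coloured by probe length. Probes that are high on the embryo array lie mostly left of 0, and only 1 probe, of Tcfe2a, is at or above 0.5 on both arrays.

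Probe by probe, the arrays ran in opposite directions when both were read as offspring over control. The ratios correlated at −0.435 (Pearson; Spearman −0.513) over the 187 band probes, and at −0.251 (Spearman −0.309) over 40295 autosomal probes outside the band. The probes share 1 pair of arrays, and the arrays have no DNA sample in common by their labels. The sign was the same in 27.8% of band probes and in 39.1% of the others. Read as Cy5 over Cy3 on both arrays, the same values correlated at 0.435 and had the same sign in 72.2% of band probes and 60.9% of the others. The band median was then 0.016 for adults and 0.12 for embryos. Of the 40 probes high on the embryo array, 35 lay below 0 on the adult array (median −0.19), as did 103 of all 187 band probes. By the way these 35 were picked, their centred Cy5 over Cy3 ratio lies above the array median on both arrays, so that reading adds nothing to the count. The same count was not made for high embryo probes outside the band. The part of the dyes in these values was not tested, as no array of either stage had the dyes swapped.

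Probes past 0.5 on both arrays were counted in the band only. There 9 probes were past it, 8 with opposite and 1 with the same sign. The latter was the third Tcfe2a probe, with an embryo ratio of 1.001 (error 0.37) and an adult ratio of 0.56 (error 0.32). Low on the adult and high on the embryo array were Ncln (−0.87 and 1.001), 1600002K03Rik (now Fam174c; −0.80 and 0.79), Zbtb7 (now Zbtb7a; −0.59 and 0.83), AK029074 (−0.51 and 0.98) and Slc39a3 (−0.50 and 1.43). High on the adult and low on the embryo array were 3110056O03Rik (0.77 and −0.999), 6330514A18Rik (0.61 and −0.98) and ENSMUST00000079531 (0.57 and −0.78). The last 3 were 60-base probes with embryo signals of 160 to 525 in both channels, below the band medians of 1391 (offspring) and 1278 (control), and adult errors of 0.67, 0.45 and 0.63. The lowest adult probes were those of 4931413A09Rik (now Ccdc105; −1.64, error 1.05) and the lipid transporter gene Abca7 (−1.24, error 0.75), at 0.36 and −0.13 on the embryo array. The former was not well above background on the adult array and held a surrogate value there. Gpr54, Diras1, Rgs19ip3, Zbtb7, AK029074, 1600002K03Rik, 4931413A09Rik and Abca7 were named after their values were seen.

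Band probes were brighter than the array median in both channels of both arrays. On the embryo array the offspring signal lay 0.49 and the control signal 0.34 above its channel median (log2). The adult offspring signal lay 0.52 and the control signal 0.48 above it. Neighbouring band probes had embryo ratios that correlated at 0.074 (Pearson; Spearman 0.024) over 186 pairs, against 0.029 (Spearman 0.025) outside the band. The adult values were −0.082 and 0.014 (Pearson). Neighbours had the same sign on the embryo array in 54.8% of pairs in the band and 51.0% outside it.

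Embryo ratios were higher in shorter probes, inside the band and outside it. In the band the median was 0.37 for probes of 45 to 49 bases (42 probes), 0.20 for 50 to 54 bases (27 probes), 0.087 for 55 to 59 bases (46 probes) and 0.052 for 60 bases (72 probes). On the autosomes outside it the medians were 0.13, 0.072, 0.033 and 0.00030. Of the 40 high embryo probes 29 were shorter than 60 bases (72.5%), against 61.5% of the band. Length and embryo ratio correlated at −0.284 in the band (Spearman −0.273) and at −0.040 outside it (Spearman −0.094). On the adult array, where the offspring carried the other dye, the relation was turned, at 0.325 (Spearman 0.270) in the band and 0.043 (Spearman 0.105) outside it.

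Within each length class the share of high embryo probes was larger in the band. At 45 to 49 bases it was 28.6% (interval 15.7 to 44.6%) against 16.6% of autosomal probes outside it. At 50 to 54 bases it was 37.0% against 8.84%, and at 55 to 59 bases 15.2% against 5.88%. At 60 bases it was 15.3% (interval 7.88 to 25.7%) against 3.49%. As the band was chosen for high embryo probes, these differences are a description. The adult share at or below −0.5 was 19.0% (interval 8.60 to 34.1%) against 9.82% at 45 to 49 bases, and 0 of 27 (upper limit 12.8%) against 8.17% at 50 to 54 bases. At 60 bases it was 0 of 72 (upper limit 4.99%) against 5.25%.

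**Figure D4:**
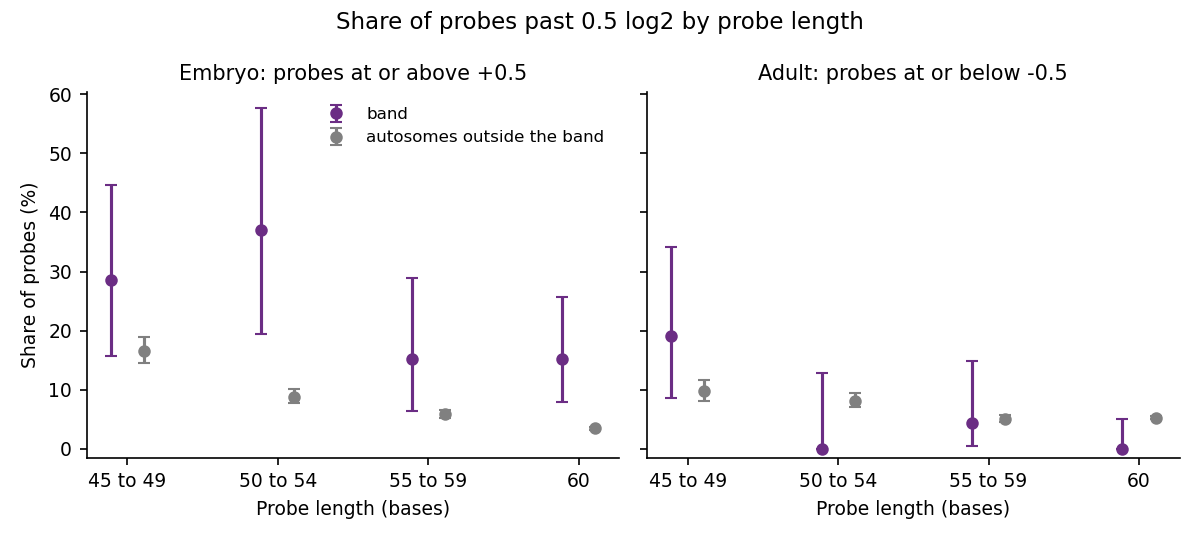
Share of probes in percent (vertical axis) with an embryo ratio at or above 0.5 (left) or an adult ratio at or below −0.5 (right) by probe length in bases, in the band and on the autosomes outside it. Points are shares and bars are exact binomial 95% intervals; at 60 bases the embryo share is 15.3% in the band and 3.49% outside it.

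Within single genes the relation to probe length was uneven. In 20 genes with both a 60-base and a shorter probe in the band, the shorter one had the higher embryo ratio in 11 and the lower in 9 (median difference 0.18, SD 0.78). Its adult ratio was higher in 7 and lower in 13 (median difference −0.24, SD 0.55). These 20 include 4931413A09Rik and Itgb1bp3, whose probes lie far apart. Thrap5 had the largest embryo difference, 1.99, and Efna2 the most negative, −1.002, where the 57-base probe had 0.082 and the 60-base probe 1.08.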

How the data were processed

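Genomic DNA of 2 comparisons was hybridised to Agilent 2-colour arrays. Per the file headers, Agilent Feature Extraction 9.1.1.1 (9.1 per the submitters' processing notes) made the deposited spot intensity values: processed signals had a fitted spatial background surface subtracted, were detrended, given surrogate values where dim, and scaled by linear dye normalization. The deposited log10 ratios are Cy5 over Cy3; the series matrix's log10 values matched them within 0.0005 (medians −0.0032 adult, 0 embryo). The error of a log ratio is the software's. Depth has no meaning for arrays, and their number limits the precision.

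Control spots (1030 per array) and 8 (adult) and 34 (embryo) spots marked as outliers were left out. Log2 ratios were averaged per probe and centred on the array median without loess. All 187 band probes had a ratio on both arrays, and 184 (adult) and 187 (embryo) were well above background in both channels; 3 adult probes held surrogate values. Segments came from a least-squares partition of the 2035 probes of chromosome 10 (penalty factor 3, noise 0.27 on both arrays). Only those touching the band were kept. The partition was run on simulated probes with independent noise of the size found on the embryo array. Embryo band probes had a wider SD of 0.51, so that run does not bear on false segments here. Tools were Python 3.11.15, numpy 2.4.6, pandas 2.3.3, scipy 1.17.1, statsmodels 0.14.6, matplotlib 3.10.9, R 4.3.3 and limma 3.58.1 (normexp).

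Members, gene lists and settings were chosen with earlier results of these data known. Named genes were the 10 highest and 5 lowest embryo and 5 highest and 5 lowest adult medians (at least 2 usable probes), genes in segments, up to 4 per list with most usable probes, and probes at the edges. RefSeq coordinates were printed only for promoter windows.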

Additional observations from a re-analysis of the deposited data

Results flagged for a closer look

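The band median and its 3 embryo segments had opposite signs on the 2 arrays, and the difference between stages was not tested, since there was 1 array of each. The embryo median of the band exceeded the adult median by 0.13 (0.12 against −0.016), and the adult one lay near the array median. In the segment from Fgf22 to Thrap5 the difference was 0.95, in the segment with AK088566 and Amh 1.54, and in the segment with Ncln, Gna15 and Gna11 1.21. The segments were called for high embryo ratios, in a band chosen for them, so nothing is read from the size of these differences. The offspring were in Cy5 on the embryo array and in Cy3 on the adult array, so stage and dye cannot be told apart.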

How the results depend on the processing

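No paired analysis was possible because the labels give no replicate numbers and each stage has 1 array, so no replicate could be left out either. In the alternatives run, the embryo median of the band stayed above 0 (0.052 to 0.24) and the adult median ran from −0.061 to 0.016. The adult value of 0.016 is the main value of −0.016 read as Cy5 over Cy3, a change of direction and not of processing. Read as offspring over control, the adult median was 0.0062 for 60-base probes alone and −0.044 for shorter probes alone. With normexp (offset 50) the embryo median was 0.24. At or above 0.5 lay 46 embryo probes (24.6%, against 6.95% of all probes at this setting), and 2 lay at or below −0.5. The adult counts were 0 and 0, with 0.012% of all adult probes at or above 0.5. The partition then called 1 embryo segment, and the arrays correlated at −0.657. An offset draws ratios toward 1 by construction; the cause of the higher embryo median was not tested. Of the named genes' medians, 26 changed sign under normexp and 8 under loess; 15 and 6 of these lay within 1 SD between spots of 0 to begin with. Farther from 0, under normexp the embryo medians of Gzmm (0.11), Polrmt (0.078), Adn (−0.043), Grin3b (0.017), Amh (−0.22), 3110056O03Rik (0.025), Thop1 (0.031), Atcay (0.016) and Fzr1 (0.11) and the adult medians of Rnf126 (0.047) and Tcfe2a (0.11) changed sign, and under loess the embryo medians of Bsg (−0.015) and Oaz1 (−0.048) did. Loess gave a band median of 0.0995 and 3 segments on the embryo array. A penalty factor of 5 called 0 segments and a minimum of 5 probes called 2. At a threshold of 0.3, adult counts were 18 higher and 27 lower and embryo counts 60 and 21. At a threshold of 1 they were 0 and 2, and 17 and 0. With 1 value per gene name, 1 adult value was higher, and 25 embryo values were higher and 5 lower. For these thresholds and for values per gene, shares over the whole array were not computed, so the counts have no background beside them. As Cy5 over Cy3, adult counts were 10 higher and 6 lower. Added after seeing the data: 60-base probes alone had an embryo median of 0.052, with 11 higher and 5 lower, and 0 lower on the adult array; shorter probes alone had 5 lower on the embryo and 2 higher on the adult array.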
